A study of Danio rerio with 6 samples.

Results

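The genes described here encode the subunits of the 3 nuclear RNA polymerases. Membership was set by gene symbol, but the family was chosen with earlier results of these data known. Every gene of the count tables whose symbol begins with polr1, polr2 or polr3, in either case, was taken, which gave 33 of 32520 genes. Their RNA-seq counts came from zebrafish (Danio rerio) blood progenitors, taken at 20 h post fertilization (hpf) by sorting cells with red fluorescent protein (RFP) made by a gene trap in blf, with 30000 cells per library. The series holds 3 libraries from blf-/-;drl 4KO embryos, which carry mutations in blf and in drl genes, and 3 from controls. The control genotype is given as blf-/- in the sample labels and as blf+/- in the series design, so a loss of blf may be common to both groups. Zinc finger proteins are the products of both blf and the drl (draculin) genes. The sort marker itself is read from the blf locus, and the labels do not say how many embryos or clutches went into a library.

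RNA polymerase I (Pol I) makes the large ribosomal RNA precursor in the nucleolus, and Pol II makes messenger RNA and many small RNAs. Pol III makes transfer RNA and the smallest ribosomal RNA. Each enzyme has a pair of large catalytic subunits of its own, a stalk and further specific subunits. A few small subunits are common to all 3 enzymes, and the scaffold proteins encoded by POLR1C and POLR1D are common to Pol I and Pol III. Growing and dividing cells make ribosomes and transfer RNA at high rates, and mutations in several Pol I and Pol III subunit genes cause craniofacial or neurological disease in people. By the subunit composition known from yeast and human enzymes, the 33 genes were divided into 6 of Pol I only, 2 of Pol I and Pol III, 6 shared by all 3 enzymes, 7 of Pol II only, 11 of Pol III only, and polr2m, which encodes the Pol II associated protein Gdown1. Symbols are printed as the name table lists them, many of them in the capitals of human genes.

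Genes of Pol I only had the lowest median fold change of the subunit classes in blf-/-;drl 4KO cells. All 8 genes of Pol I only or of Pol I and Pol III had every blf-/-;drl 4KO library below every control library. Of these 8, 7 fell at an adjusted p below 0.05 (edgeR). Subunits shared by all 3 enzymes, also part of Pol I, were counted apart, and 2 of the 5 tested fell. The median log2 fold change was -1.84 over the 6 genes of Pol I only and -1.38 over the 2 genes of Pol I and Pol III. It was -0.94 over 10 tested genes of Pol III only, -0.68 over 7 of Pol II only and -0.28 over 5 shared by all 3 enzymes. Over all 14517 tested genes it was 0.11, with the blf-/-;drl 4KO group over control in each case.

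Of the 33 genes, 31 passed the filter on low counts, and 11 of these (35.5%) fell while 0 rose (edgeR, adjusted p below 0.05). Among all tested genes 9.92% fell and 13.0% rose. At an unadjusted p below 0.05, 17 fell and 0 rose, and DESeq2 called 17 lower and 0 higher. The share of all tested genes past that unadjusted level is not given, here or for the classes and lists below. The unadjusted counts therefore have no baseline. DESeq2 also called more of all 14517 tested genes, 2108 lower and 2626 higher, against 1440 and 1887 in edgeR. Calls were more frequent among genes with more counts. Of tested genes with a mean of at least 10 CPM (counts scaled for library size and composition) 16.6% fell and 19.5% rose, and of the 27 subunit genes above that level 11 (40.7%) fell. The groups did not overlap, with blf-/-;drl 4KO below control, for 18 of the 31 tested genes (58.1%), against 19.8% of all tested genes. The opposite separation was seen for 0 of the 31, against 22.7% of all tested genes. All libraries of both groups were above the level of the filter (0.708 CPM) for 30 of the 31 genes, and those of the control group alone for POLR3A. The count of 11 was smaller with a library left out: it was 6 without control replicate 2, and 7 without blf-/-;drl 4KO replicate 1 or replicate 2. Lower calls over all tested genes were fewer in these fits as well, at 868, 1083 and 1184 in the same order.

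**Figure D1:**
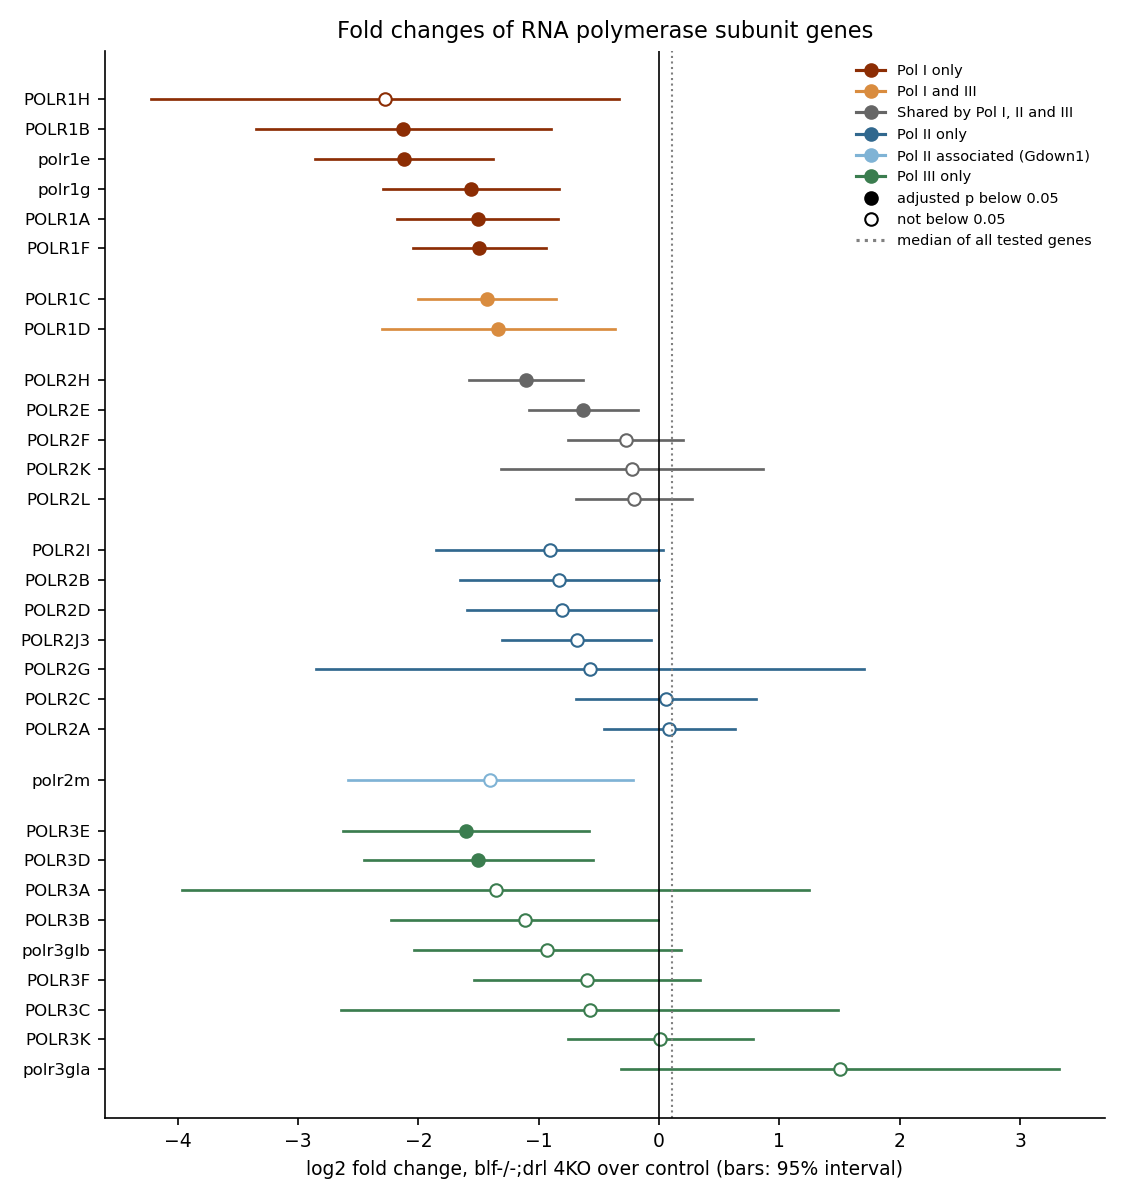
Log2 fold change (x axis, blf-/-;drl 4KO over control) of 30 of the 31 tested subunit genes (y axis), grouped by the enzyme they belong to, with 95% intervals as bars and filled points for an adjusted p below 0.05. The 6 genes of Pol I only lie between -2.28 and -1.49. Those of Pol II only lie between -0.91 and 0.09, with POLR2A and POLR2C near 0, as is POLR3K of Pol III. The dotted line is the median of all tested genes, 0.11.

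The libraries held 14063972 to 18101975 counts in the blf-/-;drl 4KO group and 12751618 to 14202026 in the control group. The targeted genes matched the labels: drl, drll.1, drll.2 and drll.3 had 7, 9, 2 and 11 counts over the blf-/-;drl 4KO libraries, against 21322, 22955, 11332 and 1255 over the controls. blf was at 45.3 to 118 CPM in blf-/-;drl 4KO and 2526 to 2835 CPM in control libraries, so its level differed between groups although the sample labels give both as blf-/-. Other cell markers moved with the groups. In the erythroid list 8 of 9 tested markers fell, with a summed level of 11634 to 15663 CPM in blf-/-;drl 4KO libraries and 93312 to 121136 CPM in controls. Myeloid markers were higher in 10 of 12 cases (5554 to 6886 CPM in blf-/-;drl 4KO and 1023 to 1202 CPM in control libraries), epidermis markers in 7 of 7 (1571 to 2253 and 147 to 194 CPM), endothelial markers in 4 of 6 (393 to 463 and 58.5 to 124 CPM) and muscle markers in 6 of 8 (2252 to 5736 and 486 to 1646 CPM). Of the blood progenitor markers 2 of 4 fell and 1 rose (373 to 540 and 1831 to 2007 CPM), and of the proliferation markers 8 of 9 fell (1490 to 1784 and 4002 to 4389 CPM). Genes that share a symbol were counted apart in these lists. The 12 tested myeloid genes came from 7 symbols, with several listed as MFAP4, and the 8 tested muscle genes came from 5. The 9 tested erythroid and 9 tested proliferation genes came from 8 symbols each. No marker was at 0 in all libraries of a group. The part of these shifts in the subunit results was not tested, and in bulk RNA fewer cells of a type and less RNA per cell cannot be told apart.

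The catalytic core of Pol I is formed by the proteins of POLR1A and POLR1B. POLR1A (ENSDARG00000098375), the largest subunit, was at 29.2, 40.9 and 53.0 CPM in blf-/-;drl 4KO replicates 1, 2 and 3, against 98.2, 151 and 101 CPM in control replicates 1, 2 and 3. The groups were well apart, and the fitted log2 difference between groups was -1.51 (SE 0.31, adjusted p = 0.00493 by edgeR). POLR1B (ENSDARG00000077469), the partner of POLR1A in the active site, had 8.40, 5.21 and 17.2 CPM in blf-/-;drl 4KO replicates 1, 2 and 3 and 35.3, 69.6 and 29.6 CPM in the controls. Its groups did not overlap but were scattered, with blf-/-;drl 4KO replicate 3 and control replicate 2 each high within its group. The log2 fold change was -2.13 (SE 0.56, adjusted p = 0.0185), but the adjusted p was 0.130 when control replicate 2 was left out, 0.0642 when blf-/-;drl 4KO replicate 1 was and 0.0542 when replicate 2 was.

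The paired subunits encoded by polr1e and polr1g form a module that acts in initiation and elongation. polr1e (ENSDARG00000006434) stood at 23.9, 42.6 and 28.8 CPM in blf-/-;drl 4KO replicates 1 to 3 and at 88.6, 142 and 183 CPM in the controls. It had the smallest adjusted p of all subunit genes, with a log2 fold change of -2.12 (SE 0.34, adjusted p = 0.0012). polr1g (ENSDARG00000090386) had 43.5, 78.0 and 30.8 CPM in blf-/-;drl 4KO replicates 1 to 3 and 164, 161 and 125 CPM in the controls. The groups did not overlap, although replicate 2 was well above the others of the lower group, and the log2 fold change was -1.56 (SE 0.33, adjusted p = 0.00647).

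POLR1F (ENSDARG00000024416) encodes a stalk subunit through which Pol I meets its initiation factor. Its blf-/-;drl 4KO libraries lay close together at 46.4, 50.5 and 55.1 CPM, with controls at 123, 124 and 181 CPM (log2 fold change -1.49, SE 0.25, adjusted p = 0.00171). POLR1H (ENSDARG00000036070), for the subunit that stimulates RNA cleavage, had few counts, with 114 counts over the blf-/-;drl 4KO libraries and 371 over the controls. Its values of 3.02, 1.19 and 2.18 CPM in blf-/-;drl 4KO cells and 8.14, 7.17 and 15.8 CPM in controls did not overlap, but its log2 fold change of -2.28 (SE 0.89) did not pass in edgeR (adjusted p = 0.0885), whereas it did in DESeq2 (adjusted p = 0.00497).

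The scaffold pair of Pol I and Pol III was lower as well. POLR1C (ENSDARG00000039400) was at 52.0, 36.7 and 36.6 CPM in blf-/-;drl 4KO replicates 1 to 3 and at 123, 108 and 107 CPM in the controls, a log2 fold change of -1.43 (SE 0.26, adjusted p = 0.00281). POLR1D (ENSDARG00000037570) had 14.5, 12.4 and 31.9 CPM in blf-/-;drl 4KO replicates 1 to 3, against 52.8, 41.1 and 54.5 CPM in the controls. Replicate 3 was at more than 2 times the level of either other blf-/-;drl 4KO library, and the fall was just past the threshold (log2 fold change -1.33, SE 0.44, adjusted p = 0.0495). That call was lost without control replicates 1, 2 or 3 (adjusted p = 0.113, 0.101 and 0.126), without blf-/-;drl 4KO replicates 1 or 2 (0.147 and 0.135), with library totals (0.118) and with no filter (0.123). The ratio of POLR1C to POLR1D counts, whose proteins pair with one another, was 3.59, 2.95 and 1.15 in blf-/-;drl 4KO replicates 1 to 3 and 2.33, 2.63 and 1.96 in the controls, with overlapping groups.

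**Figure D2:**
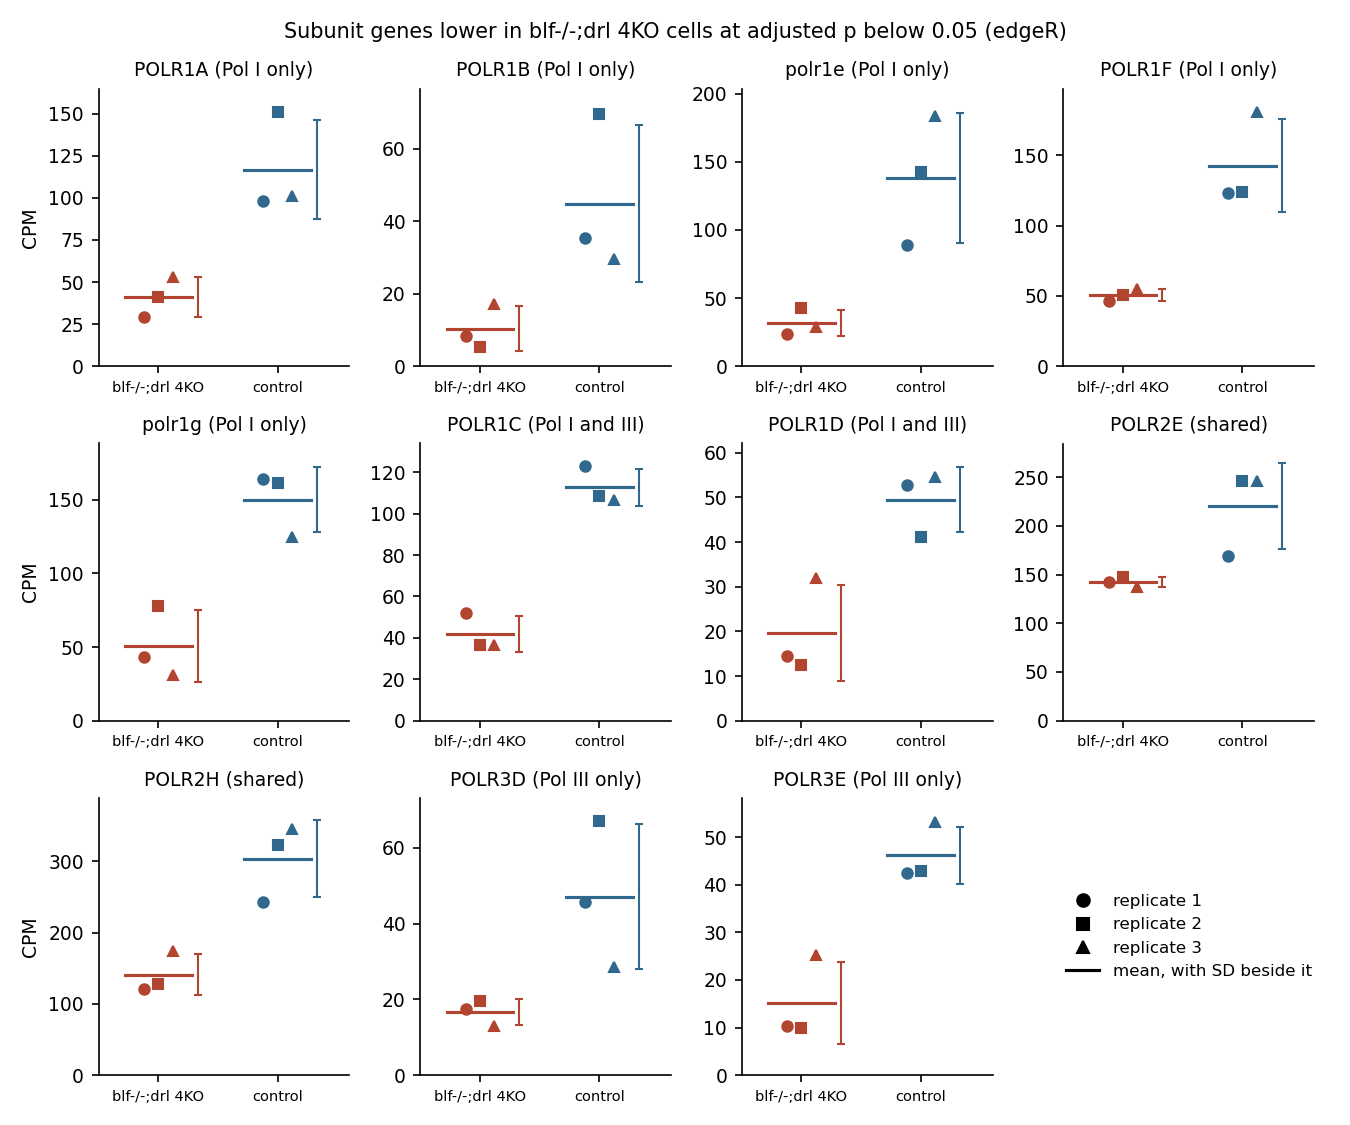
Level in CPM (y axis) of the 11 subunit genes with an adjusted p below 0.05 in each library, with a symbol per replicate, a line at the group mean and the SD beside it (n = 3 each). In every panel the 3 blf-/-;drl 4KO points lie below the 3 control points, and relative to its level the gap is narrowest for POLR2E.

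The subunits common to all 3 enzymes did not move as one. POLR2H (ENSDARG00000038505), for a small subunit at the periphery of each enzyme, fell in blf-/-;drl 4KO cells. It was at 121, 128 and 174 CPM in blf-/-;drl 4KO replicates and at 243, 323 and 346 CPM in controls (log2 fold change -1.11, SE 0.22, adjusted p = 0.00396). POLR2E (ENSDARG00000026183), whose protein contacts incoming DNA in the jaw of the enzyme, was at 142, 147 and 138 CPM against 169, 246 and 246 CPM in controls. The groups were separated only by the gap between blf-/-;drl 4KO replicate 2 and control replicate 1, and the log2 fold change of -0.63 (SE 0.20) was just past the threshold (adjusted p = 0.0470). In several settings the call was lost while the fold change stayed between -0.64 and -0.53. The adjusted p was 0.195 and 0.169 without control replicates 2 and 3, 0.131, 0.104 and 0.131 when replicate 1, 2 or 3 of blf-/-;drl 4KO was left out, 0.0557 with limma-voom and 0.0833 with the replicate number as a block. The fold change itself was smaller with library totals (-0.30, adjusted p = 0.270) and with no filter (-0.44, adjusted p = 0.317).

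The remaining shared subunits did not pass the test, and their groups overlapped. POLR2F, which encodes a subunit needed for assembly, averaged 107 ± 12.5 CPM in blf-/-;drl 4KO and 129 ± 16.6 CPM in control libraries (SD, n = 3 each), a log2 fold change of -0.28 with a 95% interval of -0.76 to 0.20. POLR2L, for a zinc-binding subunit, averaged 136 ± 24.2 and 157 ± 22.1 CPM in the same order of groups (log2 fold change -0.21, interval -0.69 to 0.27). These intervals leave out the log2 fold changes fitted for the Pol I only genes, -2.28 to -1.49. Intervals of Pol I genes can overlap them, as for POLR1H (-4.23 to -0.34), and no difference between genes was tested. For POLR2K, for the other zinc-binding subunit, the interval was wide, at -1.31 to 0.86, because its blf-/-;drl 4KO libraries stood at 17.4, 16.9 and 54.0 CPM while the controls stood at 30.6, 36.4 and 36.3 CPM. Replicates 1 and 2 of blf-/-;drl 4KO were below all controls and replicate 3 was above all of them. The signs of POLR2F, POLR2K and POLR2L turned positive with library totals (log2 fold changes 0.04, 0.08 and 0.11). The second gene listed as POLR2E (ENSDARG00000074274) did not pass the filter and had 1, 12 and 33 counts in blf-/-;drl 4KO replicates 1 to 3 and 4, 3 and 0 in the controls. The 2 POLR2E genes may share reads, but the first held at least 98.4% of their summed counts in every library.

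Among the 7 genes of Pol II only, 0 fell and 0 rose in edgeR, against 9.92% and 13.0% of all tested genes. For 7 genes, 0 lower is near that share. At an unadjusted p below 0.05, 3 were lower, a count without a baseline. DESeq2 called 2 lower, POLR2D and POLR2I, against 2108 of all 14517 tested genes. All 7 had a log2 fold change below the median of all tested genes, as had 30 of the 31 tested subunit genes. POLR2A (ENSDARG00000099966), the largest subunit with the repeat tail that coordinates messenger RNA processing, was at 163, 109 and 111 CPM in blf-/-;drl 4KO replicates 1 to 3 and at 148, 99.5 and 113 CPM in controls. These values were interleaved, and the log2 fold change was 0.09 (95% interval -0.46 to 0.63), with its sign reversed without control replicate 2 (-0.01) and without blf-/-;drl 4KO replicate 1 (-0.10). POLR2C, for a scaffold subunit, averaged 72.6 ± 8.36 CPM in blf-/-;drl 4KO and 69.9 ± 29.1 CPM in control libraries, where control replicate 1 alone was low at 36.5 CPM.

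The other Pol II genes had negative log2 fold changes that did not pass. POLR2B, the partner of POLR2A in the active site, was at 21.3, 49.7 and 36.4 CPM in blf-/-;drl 4KO cells, against 46.0, 72.9 and 72.0 CPM in controls (log2 fold change -0.83, 95% interval -1.66 to -0.00155, adjusted p = 0.141). POLR2D, for a stalk subunit, was at 24.2, 32.5 and 21.2 CPM against 40.2, 46.1 and 50.4 CPM in controls, without overlap (log2 fold change -0.81, adjusted p = 0.130). POLR2I, whose protein supports accurate transcription, was at 24.6, 14.3 and 14.7 CPM against 29.5, 34.1 and 37.1 CPM in controls, and POLR2J3, named for a scaffold subunit, at 64.6, 44.4 and 48.4 CPM against 66.5, 95.7 and 90.5 CPM. Both had groups without overlap, at adjusted p = 0.156 and 0.108. POLR2G, for the other stalk subunit, had 15, 99 and 27 counts in blf-/-;drl 4KO libraries and 74, 42 and 35 in controls, too few and too scattered for a narrow interval (-2.85 to 1.70). polr2m was measured at 8.45, 7.87 and 8.91 CPM in blf-/-;drl 4KO and 20.7, 21.5 and 24.5 CPM in control libraries, tight groups with a log2 fold change of -1.40 (SE 0.54) that did not pass in edgeR (adjusted p = 0.0854) and did in DESeq2 (adjusted p = 0.00191).

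Of the genes of Pol III only, counted apart from POLR1C and POLR1D, 2 of the 10 tested (20.0%) fell and 0 rose. Of all tested genes 9.92% fell, and of those of at least 10 CPM 16.6%. At an unadjusted p below 0.05 the Pol III only counts were 3 and 0, without a baseline. DESeq2 called 4 and 0, against 2108 and 2626 of all 14517 tested genes. POLR3D and POLR3E, which both fell in edgeR, encode the subunits that pair on the lobe of the enzyme and act in initiation and termination. POLR3D (ENSDARG00000104516) was at 17.4, 19.5 and 12.9 CPM in blf-/-;drl 4KO replicates 1 to 3, against 45.7, 67.0 and 28.6 CPM in controls (log2 fold change -1.50, SE 0.43, adjusted p = 0.0283). POLR3E (ENSDARG00000037358) was at 10.4, 9.96 and 25.1 CPM, against 42.6, 42.8 and 53.1 CPM in controls (log2 fold change -1.61, SE 0.47, adjusted p = 0.0289). Neither gene overlapped between groups, yet both calls were lost in several fits that left out 1 library. Such fits also called fewer of all tested genes lower, 868 to 1220 against 1440. POLR3D was at adjusted p = 0.0637 and 0.159 without control replicates 1 and 2, and at 0.0671 and 0.0848 when blf-/-;drl 4KO replicate 1 or 3 was left out. POLR3E was at 0.0606, 0.0830 and 0.0907 without control replicates 1, 2 and 3, and at 0.0929 and 0.0836 when blf-/-;drl 4KO replicate 1 or 2 was left out. With library totals they were at 0.0785 and 0.0654, and with no filter at 0.0842 and 0.0687.

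The catalytic subunits of Pol III, encoded by POLR3A and POLR3B, gave no call in edgeR. POLR3B was at 11.9, 9.22 and 11.3 CPM in blf-/-;drl 4KO cells and at 22.0, 22.8 and 25.6 CPM in controls. Its groups were tight and separate, and its log2 fold change of -1.12 (SE 0.51) was at adjusted p = 0.139 in edgeR and 0.0126 in DESeq2. POLR3A was thinly covered, with 12, 10 and 95 counts in blf-/-;drl 4KO libraries and 101, 115 and 23 in controls, so that 1 library of each group sat among those of the other.

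The initiation module made of the POLR3C, POLR3F and polr3g family proteins gave overlapping groups for every gene tested. POLR3F averaged 21.5 ± 2.70 CPM in blf-/-;drl 4KO and 32.6 ± 12.2 CPM in control libraries, and POLR3C 5.72 ± 2.10 and 8.51 ± 8.09 CPM in the same order. POLR3C had 236, 77 and 19 counts in control replicates 1, 2 and 3, and its sign turned to 0.43 without control replicate 1. POLR3K, for the small subunit that cleaves RNA and aids termination, was at 50.8, 30.9 and 72.4 CPM in blf-/-;drl 4KO cells and at 48.5, 51.9 and 52.8 CPM in controls, a log2 fold change of 0.01 with an interval of -0.76 to 0.78.

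The last member of that module exists in alternative forms: in mammals, POLR3G is known from pluripotent and proliferating cells and POLR3GL from most differentiated tissues. Zebrafish polr3g (ENSDARG00000024687) was close to absent in both groups, with 0, 4 and 2 counts in blf-/-;drl 4KO replicates 1 to 3 and 3, 1 and 2 in the controls, and it did not pass the filter. polr3glb (ENSDARG00000013734) had 54.6, 19.2 and 15.0 CPM in blf-/-;drl 4KO replicates 1 to 3 and 35.2, 72.2 and 61.7 CPM in the controls. polr3gla (ENSDARG00000012044) had 15.1, 5.60 and 39.7 CPM in blf-/-;drl 4KO replicates 1 to 3 and 3.11, 5.44 and 12.7 CPM in the controls. Both overlapped between groups and neither passed, at log2 fold changes of -0.93 (SE 0.50, adjusted p = 0.216) and 1.51 (SE 0.83, adjusted p = 0.221). Without blf-/-;drl 4KO replicate 1, polr3glb was called lower (log2 fold change -1.70, adjusted p = 0.0325). polr3gla was the tested subunit gene with the highest log2 fold change.

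Set against each other within a library, which no scaling can alter, the paralogs separated the groups. polr3gla made up 21.7%, 22.6% and 72.6% of the summed polr3gla and polr3glb counts in blf-/-;drl 4KO replicates 1, 2 and 3, and 8.11%, 7.01% and 17.1% in the controls. The groups did not overlap, but replicate 3 was far above the others of the higher group. The log2 ratio of polr3gla to polr3glb was 2.43 higher in the blf-/-;drl 4KO group (SE 1.17, n = 3 each, two-sided exact permutation p = 0.1, the smallest that 3 against 3 allows, and 0.3 after adjustment over the 6 ratios tested). The ratio was added after the values were seen, and the paralogs may share reads where their sequences match.

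**Figure D3:**
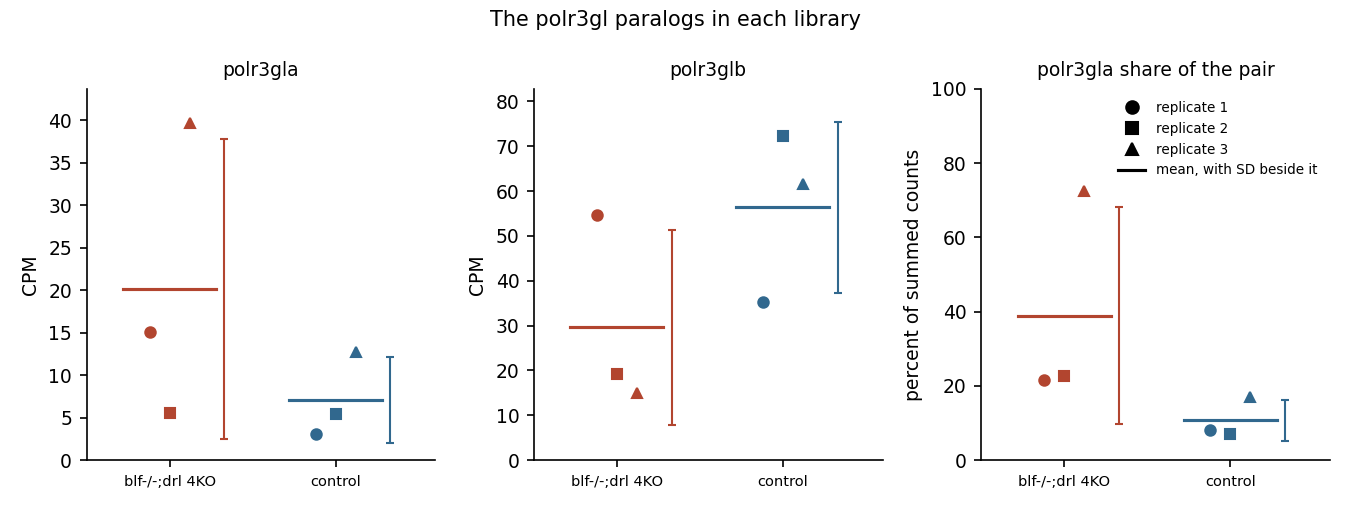
Levels of polr3gla and polr3glb in CPM and the percent of their summed counts that came from polr3gla (y axes), for each blf-/-;drl 4KO and control library, with a line at the group mean and the SD beside it (n = 3 each). The share is 21.7% to 72.6% in the blf-/-;drl 4KO libraries and 7.01% to 17.1% in the controls, while each paralog alone overlaps between the groups.

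Summed over each class, Pol I only genes had the lowest ratio of group means and Pol II only genes the highest. The Pol I only genes summed to 154, 218 and 187 CPM in blf-/-;drl 4KO replicates 1, 2 and 3, against 517, 656 and 636 CPM in the controls, a ratio of group means of 0.310. For the genes of Pol I and Pol III the sums were 61.4 ± 10.6 CPM in blf-/-;drl 4KO and 162 ± 13.2 CPM in control libraries (ratio 0.379). Pol III only genes summed to 190 ± 43.4 and 310 ± 28.7 CPM in the same order of groups (0.611) and the shared genes to 556 ± 69.3 and 845 ± 137 CPM (0.658), each without overlap, although as a percent of all counts the shared genes did overlap. Pol II only genes summed to 335 ± 40.2 and 421 ± 43.4 CPM (0.796), with overlap between the groups. Much of that sum came from POLR2A and POLR2C, with log2 fold changes of 0.09 and 0.06. They averaged 128 and 72.6 CPM in blf-/-;drl 4KO and 120 and 69.9 CPM in control libraries. The other genes of that class had log2 fold changes of -0.91 to -0.57. By median log2 fold change the shared genes (-0.28), not the Pol II only genes (-0.68), were highest.

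The balance between enzymes was also read as a ratio of summed counts within each library. Pol I only over Pol II only was 0.410, 0.658 and 0.631 in blf-/-;drl 4KO replicates 1 to 3 and 1.39, 1.51 and 1.40 in the controls. These groups were far apart, the ratio of their means being 0.396, with a range of 0.364 to 0.451 when each library was left out in turn. Pol I only over Pol III only was 0.775, 1.53 and 0.822 in the blf-/-;drl 4KO libraries and 1.74, 1.91 and 2.18 in the controls, again apart, whereas Pol III only over Pol II only overlapped, at 0.529, 0.429 and 0.767 against 0.797, 0.789 and 0.639. No test was made of these sums, since the genes of a class are not replicates. Ratios over Pol II only depend largely on POLR2A and POLR2C, which held much of that sum.

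Single gene ratios of matching subunits were lower in blf-/-;drl 4KO libraries for Pol I, with less certainty, and also for Pol III. Since POLR2A had a log2 fold change of 0.09, POLR1A over POLR2A largely restates the fall of POLR1A. POLR1A over POLR2A was 0.179, 0.375 and 0.478 in blf-/-;drl 4KO replicates and 0.663, 1.51 and 0.897 in controls, a log2 difference of -1.60 (SE 0.55, n = 3 each, two-sided exact permutation p = 0.1, adjusted 0.3 over 6 ratios). For POLR1B over POLR2B the log2 difference was -1.32 (SE 0.78, exact permutation p = 0.2), for POLR3A over POLR2A -2.12 (SE 1.41, exact permutation p = 0.3) and for POLR3B over POLR2B -0.24 (SE 0.49, exact permutation p = 0.7), each with overlapping groups. With 3 libraries in each group no such ratio could go below 0.1, and these ratios too were added after the values were seen.

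**Figure D4:**
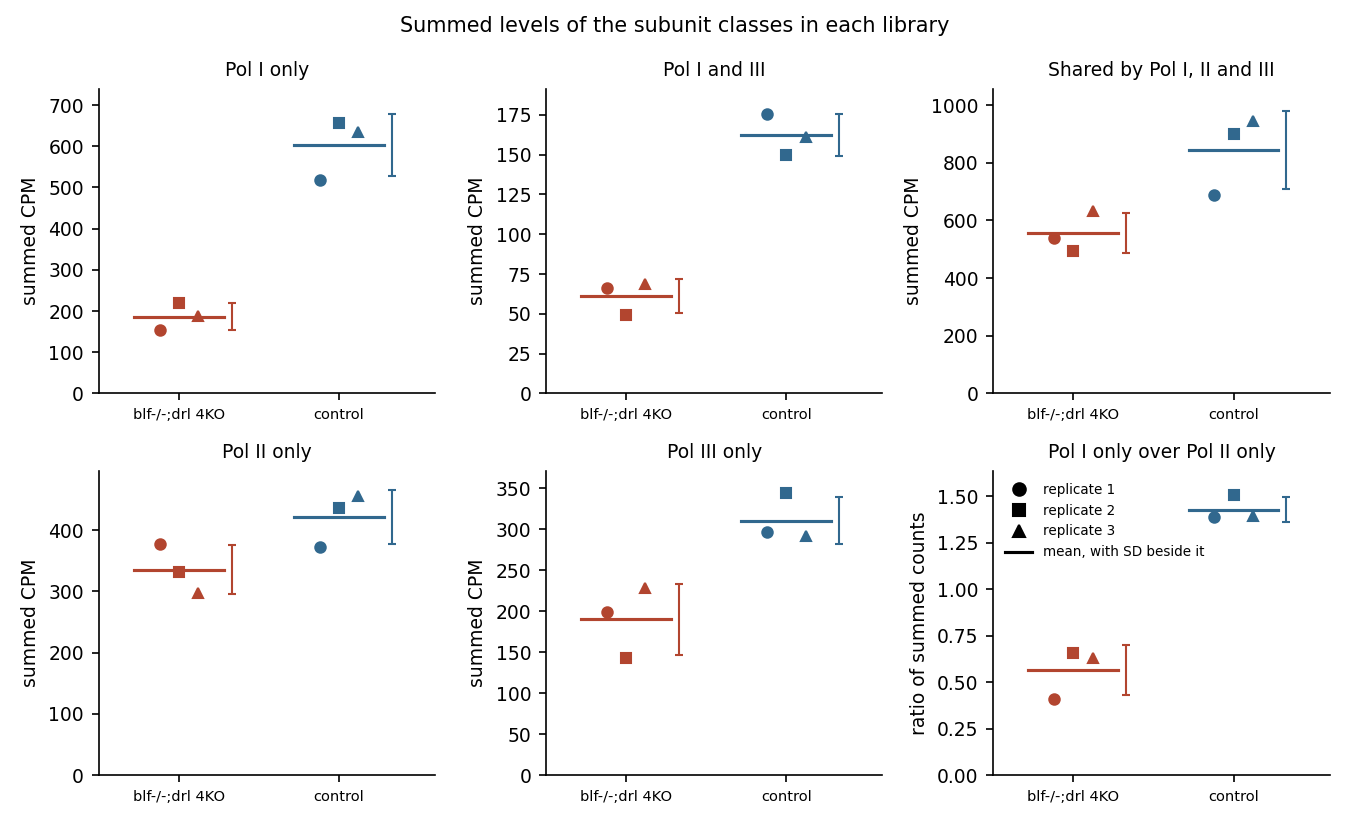
Summed CPM of each subunit class in each library, and in the last panel the ratio of summed Pol I only counts to summed Pol II only counts (y axes), with a symbol per replicate, a line at the group mean and the SD beside it (n = 3 each). The blf-/-;drl 4KO and control points are apart for Pol I only and overlap for Pol II only, a sum that is largely POLR2A and POLR2C. The ratio is 0.410 to 0.658 in blf-/-;drl 4KO and 1.39 to 1.51 in control libraries.

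Spread among libraries could be set side by side over the 31 tested subunit genes, with a median coefficient of variation of 29.0% in blf-/-;drl 4KO and 20.9% in control libraries. blf-/-;drl 4KO replicate 3 was the highest of its group for 13 of 31 tested genes and replicate 2 the lowest for 15. Among the controls, replicate 1 was the lowest for 19. The shares over all tested genes are not given, so these counts have no baseline. The log2 fold change bore little relation to abundance across the 31 genes (Spearman rho -0.03 with the control level), which all come from the same 6 libraries.

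Factors that work with each enzyme were read from the same fit, in lists written with earlier results of these data known. Of 15 Pol I, 26 Pol II, 23 Pol III and 13 assembly factor symbols written, 9, 23, 19 and 12 were matched and kept. Among tested genes of at least 10 CPM, a larger share fell (16.6%) than among all tested genes (9.92%). Of 9 tested Pol I factors 3 (33.3%) fell and 0 rose, against the 9.92% of all tested genes that fell. The list counts were 3 and 0 at an unadjusted p below 0.05, without a baseline, and 3 and 0 in DESeq2. DESeq2 called 2108 and 2626 of all 14517 tested genes. The median log2 fold change of the Pol I factors was -0.72, the value of TAF1A, and it was unsteady. It was -1.21 without blf-/-;drl 4KO replicate 1, -1.27 with limma-voom, -1.24 with the replicate block and -0.44 with library totals or no filter. TAF1A and TAF1B were at or above the filter level in every control library but not in every blf-/-;drl 4KO library. RRN3, which brings Pol I to the ribosomal DNA promoter and responds to growth signals, was at 5.98, 5.09 and 2.64 CPM in blf-/-;drl 4KO cells and at 27.2, 35.5 and 36.8 CPM in controls (log2 fold change -2.86, SE 0.55, adjusted p = 0.00387). nolc1, a nucleolar phosphoprotein gene, was at 62.0, 60.9 and 48.2 CPM against 164, 118 and 145 CPM, with a log2 fold change of -1.32 (SE 0.24, adjusted p = 0.00282). Both were separated widely between groups. ttf1.1, named for the factor that ends Pol I transcription, had a log2 fold change of -1.80 (adjusted p = 0.0126, and 0.0515 without control replicate 3). The promoter-binding factor gene ubtf was at -0.45 and tcof1, for the nucleolar protein treacle, at -0.31 (adjusted p = 0.278 and 0.472), both named after their values were seen.

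Of 21 tested Pol II general factors 3 (14.3%) fell, a share near the 9.92% of all tested genes, and 0 rose. Their median was -0.41, or -0.09 with library totals. GTF2H1 and MNAT1 reached the filter level in all libraries of the control group alone (log2 fold changes -1.10 and -1.75, neither called). DESeq2 called 5 and 0 in this list, against 2108 and 2626 of all 14517 tested genes. The list counts were 5 and 0 at an unadjusted p below 0.05, without a baseline. edgeR called 0 and 0 with library totals or no filter, or without control replicate 2, control replicate 3 or blf-/-;drl 4KO replicate 2. Those that fell were the elongation factor gene SUPT4H1 (log2 fold change -1.22, adjusted p = 0.0262), the cyclin H gene CCNH (-1.63, 0.0340) and GTF2F1, for the large subunit of a factor that escorts Pol II to promoters (-0.72, 0.0382). Each lost its call in at least 4 of the 6 fits that left out 1 library. SUPT4H1 reached 0.114 and GTF2F1 0.149 without control replicate 2, and CCNH reached 0.157 without control replicate 3. With the replicate block CCNH was at 0.0555 and GTF2F1 at 0.0629.

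Of 18 tested Pol III factors 5 (27.8%) fell and 0 rose (median -1.08), against 9.92% and 13.0% of all tested genes. In DESeq2 the counts were 7 and 1, against 2108 and 2626 of all 14517 tested genes. At an unadjusted p below 0.05 the list counts were 7 and 1, without a baseline. edgeR called 3 and 2 with library totals and 2 and 0 without control replicate 2. Of the 5, bdp1 and GTF3C4 reached the level of the filter in the controls alone, so they could be tested only because they were higher there. The tested GTF3A gene, not among the 5, also reached it in all libraries of the controls alone (log2 fold change -2.79). maf1a, named for the Maf1 repressor that holds Pol III back when growth stops, was at 55.0, 46.9 and 43.0 CPM in blf-/-;drl 4KO libraries and at 163, 163 and 136 CPM in controls (log2 fold change -1.67, SE 0.23, adjusted p = 0.000499). Its paralog listed as MAF1, named after its values were seen, was at 119, 112 and 92.9 CPM against 86.3, 81.6 and 85.4 CPM and did not pass (log2 fold change 0.35, adjusted p = 0.291). The difference between these paralogs was not tested. GTF3C4 and GTF3C5 encode subunits of the factor that recognises transfer RNA genes. GTF3C4 had 5 counts over the blf-/-;drl 4KO libraries and 189 over the controls. GTF3C5 was at 15.6, 4.92 and 10.2 CPM against 41.7, 60.4 and 41.7 CPM, with a log2 fold change of -2.23 (SE 0.50, adjusted p = 0.00817) that missed the threshold without control replicate 2 (adjusted p = 0.0544). Genes for the BRF1 component of the factor that places Pol III at its start sites, named after their values were seen, had fold changes of opposite sign, brf1a at 2.34 (adjusted p = 0.0653) and BRF1 at -1.45 (adjusted p = 0.0781). Neither passed in edgeR and both did in DESeq2 (adjusted p = 0.00678 and 0.00233), while brf1a also passed with library totals (0.0361) and with the filter of 10 CPM (0.0307).

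Of 12 tested assembly factors, the chaperones that build polymerases in the cytoplasm, 3 (25%) fell and 1 rose (median -1.25). Of all tested genes 9.92% fell and 13.0% rose. The list counts were 6 and 1 at an unadjusted p below 0.05, without a baseline, and 6 and 1 in DESeq2. DESeq2 called 2108 and 2626 of all 14517 tested genes. edgeR called 0 and 1 of the list with library totals or no filter. Leaving out each library in turn gave 0 to 2 lower. RPAP1, RPAP2 and GPN3 reached the filter level in all libraries of the control group alone. None of them was called, but their log2 fold changes of -1.98, -1.30 and -1.48 lay below the list median. URI1, a prefoldin-like partner of the shared subunit encoded by POLR2E, rose to 148, 141 and 167 CPM in blf-/-;drl 4KO libraries, against 71.1, 107 and 77.1 CPM in controls (log2 fold change 0.84, SE 0.23, adjusted p = 0.0242). That call was lost without control replicates 1 and 3 (0.102 and 0.124) or when replicate 1 or 3 of blf-/-;drl 4KO was left out (0.0566 and 0.0693). pdrg1 (log2 fold change -1.36, adjusted p = 0.0296) and the ATPase gene RUVBL2 (-2.98, 0.0322) fell. pdrg1 lost its call without control replicate 2 or 3 or replicate 1 or 2 of blf-/-;drl 4KO, and RUVBL2 without each library in turn except blf-/-;drl 4KO replicate 1.

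**Figure D5:**
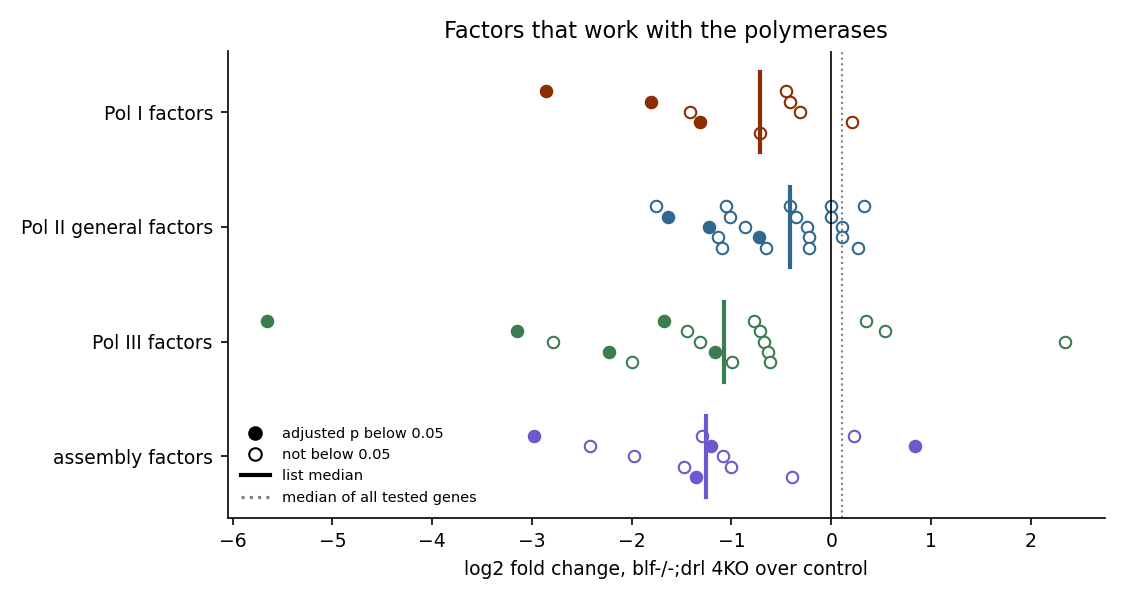
Log2 fold change (x axis, blf-/-;drl 4KO over control) of each tested gene in the lists of Pol I, Pol II, Pol III and assembly factors (rows), with filled points for an adjusted p below 0.05 and a bar at each list median. The medians in this fit are -0.72, -0.41, -1.08 and -1.25. That of Pol I factors is -1.21 without blf-/-;drl 4KO replicate 1, and that of Pol II factors -0.09 with library totals. Each list holds some genes that reached the filter level in all libraries of the control group alone. The dotted line is the median of all tested genes, 0.11.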

How the data were processed

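The deposited values are raw read counts per Ensembl gene, 1 table per library. Per the submitters' processing notes, the tools the authors used were featureCounts 1.6.0, SAMtools 1.10, HISAT2 2.2.1, FastQC 0.11.9 and bcl2fastq, with GRCz11 as the genome build. Annotation release, strand setting and handling of multi-gene reads: not given in the sources used here. Values of paralogs and overlapping genes are thus uncertain. A name table keyed on Ensembl ID gave symbols for 89.8% of IDs. The values of 1 Pol III gene are not reported here, although counts, medians and sums include it. Gene lengths were not used, so ratios, shares and sums across genes depend on length and are not proportions of molecules.

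Groups and replicate numbers came from the sample titles. Separate clutches are not stated, and p-values then reflect only spread between these samples, possibly technical. Replicates differed beyond sampling noise, with a chi-square of 31.8 to 68.0 per degree of freedom. edgeR 4.0.16 in R 4.3.3 (filterByExpr, TMM, robust quasi-likelihood test) was fitted to all 14517 genes that passed the filter, with Benjamini-Hochberg adjustment over them and calls below 0.05. CPM use TMM-scaled library sizes, ± gives the SD of 3 libraries, and SE is the log2 fold change divided by the square root of F. The biological coefficient of variation was 66.5%. The same steps were tested on simulated counts.

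The members and lists were chosen with earlier results of these data known, and the ratios between single genes were added after the values were seen. Values in every library are given for members past the threshold, for the polr3g family and for members sharing a symbol. Of each factor list, the 3 genes of smallest p are named. The alternatives comprised DESeq2 1.42.0, limma-voom (limma 3.58.1), scaling by RLE or by library totals, no filter, a stricter one (10 CPM or more in 3 libraries), leaving out globin and mitochondrial genes, a replicate block, and leaving out each library.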

Additional observations from a re-analysis of the deposited data

How the results depend on the processing

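Of the 11 subunit genes called lower, 6 were past the threshold in all 14 alternatives: POLR1A, polr1e, POLR1F, polr1g, POLR1C and POLR2H. The number called lower was 7 with library totals, 7 with no filter, 17 with DESeq2, 10 with the replicate block, and 6 to 9 with each library left out. None was called higher in any of them. Library totals moved the fold changes of all genes by a median of 0.315 on the log2 scale, and no filter by 0.204. Relative to the median of all genes with library totals, the Pol I only median was -1.93, against -1.95 with TMM, and the median of genes shared by all 3 enzymes -0.38, against -0.39. With no filter these relative medians were -1.59 and -0.00296, the second over 6 genes. On its own scale the shared median was 0.0407 with library totals, against -0.28 with TMM, and the Pol III only median was -0.61 with library totals and -0.72 with no filter, where the shared median was -0.06. With each library left out, the Pol III only median was -1.16 to -0.73 and the shared median -0.58 to -0.18. Over all tested genes, 1440 were lower and 1887 higher, of which 56.7% were higher. With library totals these were 959 and 2402 (71.5% higher), and with no filter 1021 and 2053 (66.8% higher). DESeq2 gave 2108 and 2626 (55.5% higher), and lower calls numbered 868 to 1220 with each library left out.

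In all, 7 members changed sign in some setting. POLR2C was at -0.01423 with RLE factors, -0.0142 with DESeq2 and -0.3114 to 0.2252 with each library left out. POLR3K was at -0.04644 with RLE factors, -0.0465 with DESeq2, -0.09063 with limma-voom, -0.07099 with the replicate block and -0.2885 to 0.2894 with each library left out. With library totals POLR2F was at 0.0407, POLR2K at 0.07842 and POLR2L at 0.1101. With each library left out POLR2K was at -0.9727 to 0.07052, POLR3C at -1.062 to 0.4306 and POLR2A at -0.1009 to 0.2121. The cause was not tested.

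Libraries of the 2 groups with the same replicate number did not deviate together (correlations of 0.00355, -0.0408 and -0.000683 over 14517 genes). Whether libraries of equal number were made together is not stated in the labels, and 3 libraries per group cannot settle it. With the block, POLR2E (adjusted p = 0.0833), CCNH (0.0555) and GTF2F1 (0.0629) lost their calls.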
